A study of Homo sapiens with 16 samples.

Results

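The genes described here are CIITA, the master regulator of MHC class II transcription, and 9 genes that encode class II molecules or the proteins that load them with peptide: CD74, HLA-DRA, HLA-DRB1, HLA-DPA1, HLA-DPB1, HLA-DQA1, HLA-DMA, HLA-DMB and HLA-DOB. They were picked by gene symbol, but with earlier results of these data known. Those results included fold changes that name class II genes in MM.1S, so no count over these genes is independent evidence. The array held 18 probes for these 10 symbols, among 50599 probes and 32080 symbols in all. A probe was tested in a line if some treatment group of that line had both its arrays well above background: 16 of the 18 probes passed in RPMI-8226 and 17 in MM.1S, and every one of the 10 genes kept at least 1 probe in each line. HLA-DQA1 passed in each line only through the combination group.

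The data are 1-colour Agilent expression arrays of RPMI-8226 and MM.1S, established human multiple myeloma cell lines, that is, lines of malignant plasma cells. The study asked how inhibiting the histone methyltransferases EZH2 and G9a, alone and together, changes gene expression in these cells. Each line was grown for 6 days with the solvent DMSO, with the EZH2 inhibitor GSK126 at 1 μM, with the G9a inhibitor UNC0638 at 1 μM, or with GSK126 + UNC0638 at 1 μM each. Each of the 8 groups has 2 arrays, labelled replicate 1 and replicate 2. The labels do not say whether the 2 replicates came from separate cultures, and the study's paper describes them as 2 biological replications. The p-values measure the spread between these arrays. Levels are given as log2 intensity minus the array's own 75th percentile, so 0 is the intensity below which 75% of its spots lie. Levels are compared within a probe, never between probes, since probes differ in brightness. A gene is said to have changed where its limma test had a Benjamini-Hochberg adjusted p under 0.05 over all 23199 probes tested in RPMI-8226 or all 25102 tested in MM.1S. Where a gene had several tested probes, the one with the highest mean in that line stands for it.

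Between 46.5% and 49.7% of spots on the RPMI-8226 arrays and between 49.9% and 52.8% on the MM.1S arrays were well above background. Replicates correlated at 0.986 to 0.992 in RPMI-8226 and at 0.993 to 0.995 in MM.1S over the probes tested. All 8 arrays of a line lay on 1 slide, with a treatment in each column and a replicate number in each row, so a slide effect and a cell line effect cannot be separated. All 8 plasma cell markers examined, among them SDC1 (CD138), TNFRSF17 (BCMA) and IRF4, were well above background on both arrays of every group.

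MHC class II molecules are pairs of an alpha and a beta chain (DR, DP and DQ) that show peptides from the endocytic pathway to CD4 T cells. The invariant chain CD74 guards the groove during transport, HLA-DM then exchanges the remnant of the invariant chain for peptide, and HLA-DO, whose beta chain is HLA-DOB, restrains HLA-DM. CIITA does not bind DNA itself: it is recruited by RFX, CREB and NF-Y factors that sit together on the X and Y boxes of class II promoters. B cells transcribe CIITA constitutively, plasma cells largely silence it through PRDM1 (Blimp-1), and other cells induce it through interferon gamma and IRF1.

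Promoter windows of 300 bases around the annotated start, from RefSeq on GRCh38.p14, were at hand for 8 of the 10 genes, as 9 windows. The short motifs searched on both strands were AGCAAC (part of the X box bound by RFX), TGACG (part of the site bound by CREB) and ATTGG (the NF-Y box read in reverse). AGCAAC was in 3 of the 9 windows against 12.8% of all 35116 windows, TGACG in 5 against 24.6%, and ATTGG in 7 against 34.6%. AGCAAC followed by ATTGG within 40 bases on the same strand was found in 181 windows, or 0.515%, one of them that of HLA-DRB1. Of the other class II loci, HLA-DRB5 and HLA-DOA held this pair. No other window of these genes, or of the 5 windows of other class II loci, held the pair. The 3 stretches are shown with the motifs in capitals, because the pair is the part of the promoter at which CIITA is recruited.
HLA-DRB1, GRCh38.p14 chr6:32589884-32589933, minus strand: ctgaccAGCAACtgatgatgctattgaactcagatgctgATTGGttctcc
HLA-DRB5, GRCh38.p14 chr6:32530367-32530416, minus strand: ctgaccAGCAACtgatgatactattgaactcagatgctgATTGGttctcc
HLA-DOA, GRCh38.p14 chr6:33009648-33009698, minus strand: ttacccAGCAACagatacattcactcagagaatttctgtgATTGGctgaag
The gap between the motifs is 27 bases in HLA-DRB1 and in HLA-DRB5 and 28 bases in HLA-DOA.

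A longer stretch of letters, TGATGATG, was picked after these windows had been read, so its count is a description only. It was in 330 of all windows, or 0.94%, and in those of HLA-DRB1, HLA-DMA, HLA-DMB and HLA-DOB. TGATGATG followed by ATTGG within 40 bases on the same strand was in 16 windows, or 0.0456%, of which 3 belong to the genes described here. These 3 are printed with TGATGATG and ATTGG in capitals, to show how alike in spacing they are in genes that lie apart on the chromosome.
HLA-DRB1, GRCh38.p14 chr6:32589884-32589929, minus strand: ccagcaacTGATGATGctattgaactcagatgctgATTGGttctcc
HLA-DMA, GRCh38.p14 chr6:32953166-32953212, minus strand: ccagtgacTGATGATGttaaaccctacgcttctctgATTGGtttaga
HLA-DOB, GRCh38.p14 chr6:32817090-32817134, minus strand: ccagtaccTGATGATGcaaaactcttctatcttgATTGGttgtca
The gap between them is 19 bases in HLA-DRB1, 20 in HLA-DMA and 18 in HLA-DOB.

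In RPMI-8226 the 2 replicates stood apart in these very genes, which bears on every result in that line. With DMSO, replicate 2 was above replicate 1 for 10 of the 10 genes, with a median difference of 1.66 on the log2 scale, whereas the median over all probes was 0.0143 and 3.83% of them differed by more than 1 in that direction. With GSK126 it was above for 8 genes (median 1.11), with UNC0638 for 9 (median 1.89), and with both for 10 (median 1.63). HLA-DRA differed by 2.31 to 3.57 over the 4 groups and CD74 by 1.63 to 3.30. In MM.1S the medians ran from -0.29 to 0.00, and no gene differed by more than 1 in either direction.

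Probes at which replicate 2 exceeded replicate 1 by more than 1 in all 4 groups numbered 63 of 23199 in RPMI-8226, or 0.272%, and HLA-DRA, HLA-DPA1, HLA-DPB1, CD74 and HLA-DMB were 5 of the genes among them. In MM.1S there was 1 such probe, for none of these genes. The probes with the largest such differences in RPMI-8226, named after their values were seen, included CAPN13 at 3.49 to 4.92, TSPAN7 at 2.09 to 3.09, the kinase gene SYK at 1.96 to 3.24, MS4A6A at 1.68 to 3.38 and CR2, a complement receptor of B cells, at 1.53 to 2.02. The deposited file names carry 1 date for each replicate number within a line, without saying what the date marks. Same-numbered RPMI-8226 arrays deviated together from their group means over all probes, at correlations of 0.254 to 0.415 in 6 of 6 pairs of groups, so fits with the replicate number as a block are given beside those without.

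**Figure D1:**
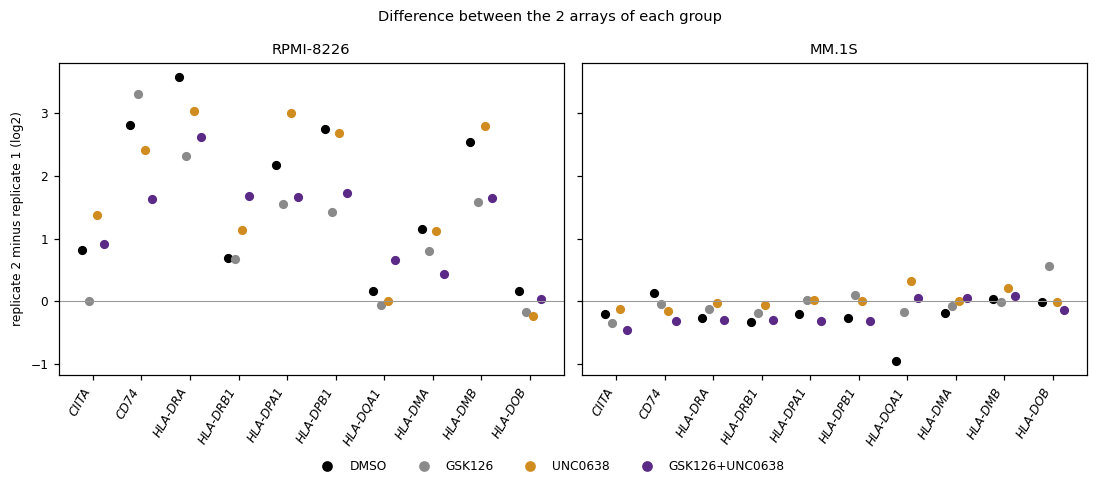
Replicate 2 minus replicate 1 on the log2 scale for each gene, with 1 point per treatment group. In RPMI-8226 the differences reach 3.57 and lie above 0 for most genes, and in MM.1S they lie between -0.94 and 0.57.

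In solvent-treated cells, class II levels were far lower in RPMI-8226 than in MM.1S. In a fit over all 16 arrays, 9 of the 10 genes were lower in RPMI-8226, against 29.3% of all 26931 probes tested there, and the exception was HLA-DQA1, which was not well above background on any DMSO array. HLA-DPA1 was lower by 7.00 ± 0.97 on the log2 scale (limma SE, adjusted p = 0.000121) and HLA-DRA by 6.97 ± 1.30 (adjusted p = 0.000951), with n = 2 arrays a line in each case. Both, and the HLA-DPB1 probe used here, were well above background on only 1 of the 2 RPMI-8226 DMSO arrays, so the sizes of these differences rest partly on a reading below background. A second HLA-DPA1 probe, above background on all 4 DMSO arrays, was lower by 4.54 ± 0.46. Without DMSO replicate 1 of RPMI-8226, 7 of the 10 were called, all but CD74, HLA-DMB and HLA-DQA1. HLA-DPB1 fell by 6.28 ± 0.99 from MM.1S to RPMI-8226 (at least 60.4-fold at the probe that represents it in MM.1S, which was below background on both RPMI-8226 arrays), CD74 by 4.38 ± 1.16, HLA-DRB1 by 3.38 ± 0.52, HLA-DMB by 3.26 ± 0.98 and CIITA by 3.23 ± 0.44. The smallest of the 9 differences were those of HLA-DMA, lower by 2.12 ± 0.42, and HLA-DOB, lower by 1.88 ± 0.17. Cell line, slide and the HLA alleles that each line carries cannot be told apart in these differences. In bulk RNA, fewer cells expressing class II genes and less RNA per cell cannot be told apart either.

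**Figure D2:**
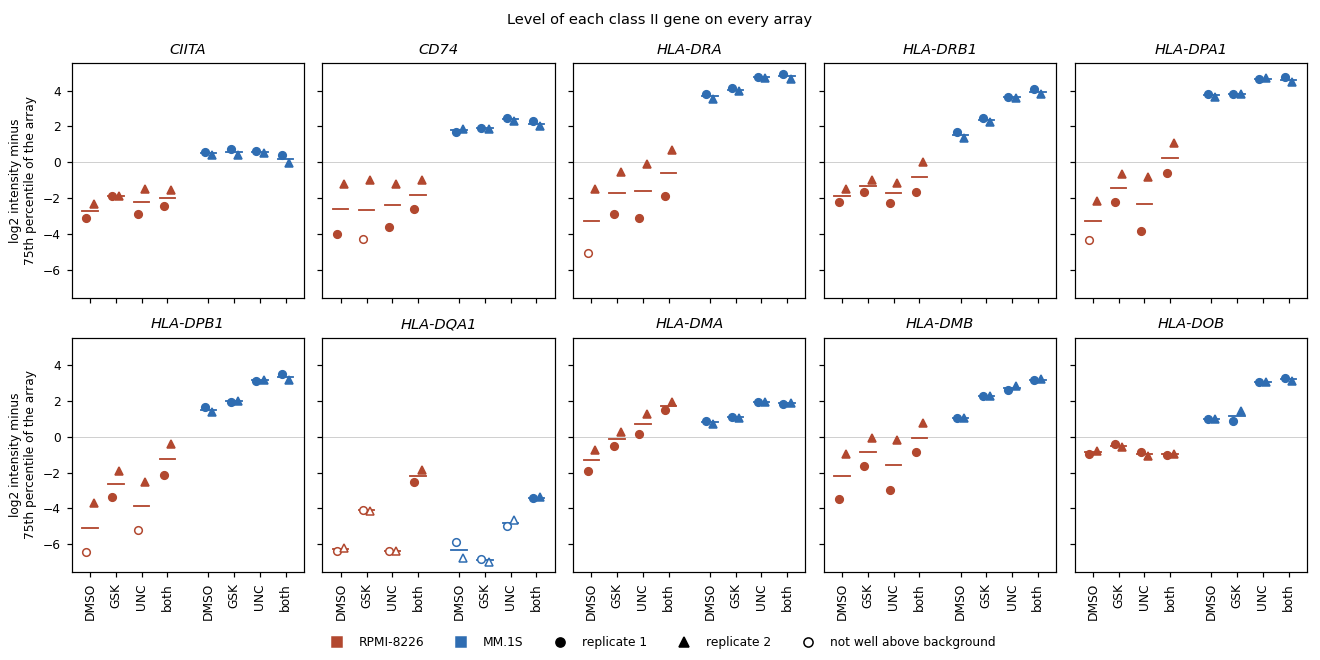
Level of each of the 10 genes on every array, as log2 intensity minus the array's 75th percentile, by treatment (GSK for GSK126, UNC for UNC0638, both for GSK126 + UNC0638). Circles are replicate 1, triangles replicate 2, short lines group means, and open symbols are not well above background. In MM.1S the 2 replicates nearly coincide, whereas in RPMI-8226 the triangles lie above the circles for most genes.

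In MM.1S, UNC0638 raised nearly the whole class II set, and fewer of the genes passed with GSK126. UNC0638 raised 9 of the 10 genes against 12.8% of all probes, with a median change of 1.32 on the log2 scale. GSK126 raised 2 of the 10, HLA-DRB1 and HLA-DMB, against 5.19% of all probes, and 5 had an unadjusted limma p under 0.05. Both GSK126 arrays lay above both DMSO arrays for 6 of the 10, against 24.6% of all probes. They lay below both for 1, against 36%. The combination raised 8 of the 10 against 22.2% of all probes, with a median change of 1.46. HLA-DQA1 is among the calls for UNC0638 and for the combination, but it passed the filter on dim probes only through the combination arrays, where it was high. Of the other 9 genes, UNC0638 raised 8 (median 1.14) and the combination 7 (median 1.11).

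The DR chains, which make up the most abundant class II molecule of B cells, were among those that rose. HLA-DRA (chr6:32412448-32412507 on GRCh37, as the array files give probe positions) lay at 3.82 and 3.56 on the DMSO arrays, 4.12 and 4.01 with GSK126, 4.76 and 4.73 with UNC0638, and 4.95 and 4.65 with both. All 6 treated arrays lay above both DMSO arrays, and the UNC0638 and combination arrays lay above both GSK126 arrays. HLA-DRA rose by 1.05 ± 0.14 with UNC0638 (limma SE, n = 2 and 2, adjusted p = 0.00501) and by 1.11 ± 0.14 with both (adjusted p = 0.00122), a 2.16-fold change. With GSK126 its difference was 0.38 ± 0.14 (adjusted p = 0.142). HLA-DRB1 (chr6:32548524-32548583) lay at 1.69 and 1.35 with DMSO, 2.46 and 2.27 with GSK126, 3.66 and 3.60 with UNC0638, and 4.09 and 3.80 with both. The 4 groups did not overlap and followed each other in that order. HLA-DRB1 rose by 0.85 ± 0.16 with GSK126 (adjusted p = 0.0331), 2.11 ± 0.16 with UNC0638 (adjusted p = 0.00115) and 2.43 ± 0.16 with both (adjusted p = 0.000221), the last a 5.38-fold change.

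The DP chains moved with UNC0638 and less with GSK126. HLA-DPA1 (chr6:33032848-33032907) lay at 3.84 and 3.64 with DMSO, 3.81 and 3.83 with GSK126, 4.67 and 4.69 with UNC0638, and 4.77 and 4.46 with both. The GSK126 arrays overlapped the DMSO arrays, and the 4 arrays that had received UNC0638 lay above them. HLA-DPA1 rose by 0.94 ± 0.13 with UNC0638 (adjusted p = 0.00547) and 0.87 ± 0.13 with both (adjusted p = 0.00217). HLA-DPB1 (chr6:33054359-33054418) lay at 1.65 and 1.39 with DMSO, 1.93 and 2.03 with GSK126, 3.14 and 3.16 with UNC0638, and 3.49 and 3.18 with both. It rose by 1.63 ± 0.14 with UNC0638 and by 1.81 ± 0.14 with both (adjusted p = 0.000346), and its 0.45 ± 0.14 with GSK126 did not pass (adjusted p = 0.101). The other tested probes of these genes gave the same calls for the combination, from 0.75 for a second HLA-DPA1 probe to 1.57, 1.58 and 1.68 for 3 further HLA-DPB1 probes.

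HLA-DQA1, the DQ alpha chain, could be measured in MM.1S only with the combination. Its probe (chr6:32610501-32610560) lay at -3.43 and -3.37 on the combination arrays and was not well above background on any of the other 6, where it read -5.86 and -6.80 with DMSO, -6.81 and -6.98 with GSK126, and -4.99 and -4.66 with UNC0638. With both inhibitors it was at least 2.61-fold higher than with DMSO, given as a description with no test, since the gene was kept only because it was high in that group. This bound sets the mean of the combination arrays against the lowest signal well above background on each DMSO array. With UNC0638 alone no fold is given, since both groups were below background.

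The genes of peptide loading rose as well. HLA-DMB (chr6:32902504-32902563), the beta chain of the peptide exchange factor HLA-DM, lay at 1.02 and 1.07 with DMSO, 2.27 on both GSK126 arrays, 2.62 and 2.84 with UNC0638, and 3.15 and 3.24 with both. The 4 groups did not overlap. HLA-DMB rose by 1.23 ± 0.10 with GSK126 (adjusted p = 0.00433), 1.69 ± 0.10 with UNC0638 (adjusted p = 0.000614) and 2.15 ± 0.10 with both (adjusted p = 0.000103). Its partner HLA-DMA (chr6:32917418-32917477) lay at 0.89 and 0.71 with DMSO, 1.11 and 1.05 with GSK126, 1.94 and 1.95 with UNC0638, and 1.86 and 1.91 with both. It rose by 1.14 ± 0.09 with UNC0638 and 1.08 ± 0.09 with both, and the 0.28 ± 0.09 with GSK126 did not pass (adjusted p = 0.11).

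HLA-DOB, the beta chain of the HLA-DM inhibitor HLA-DO, responded to UNC0638 and was not called with GSK126. Its probe (chr6:32780663-32780722) lay at 1.01 and 1.00 with DMSO, 0.86 and 1.43 with GSK126, 3.06 and 3.05 with UNC0638, and 3.27 and 3.14 with both. The GSK126 arrays lay on either side of the DMSO arrays, and the 4 arrays with UNC0638 lay well above all others. HLA-DOB rose by 2.05 ± 0.18 with UNC0638 (adjusted p = 0.00187) and by 2.20 ± 0.18 with both (adjusted p = 0.00041), a 4.6-fold change. CD74 (chr5:149792222-149792281), the invariant chain, moved least of those that rose: it lay at 1.72 and 1.86 with DMSO, 1.91 and 1.87 with GSK126, 2.47 and 2.33 with UNC0638, and 2.31 and 1.9996 with both. It rose by 0.62 ± 0.13 with UNC0638 (adjusted p = 0.0175), and the 0.37 ± 0.13 with both did not pass (adjusted p = 0.0508).

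CIITA itself was not called in MM.1S with any treatment in the fit without the replicate block. Its probe (chr16:11018667-11018726) lay at 0.60 and 0.40 with DMSO, 0.75 and 0.41 with GSK126, 0.62 and 0.50 with UNC0638, and 0.40 and -0.06 with both. The single-inhibitor arrays overlapped the DMSO arrays. Both combination arrays lay below both DMSO arrays, replicate 1 only just, at 0.397 against 0.402 for the lower DMSO array. CIITA was the 1 gene of the 10 that lay lower in this way, against 46% of all probes. Its differences were 0.08 ± 0.19 with GSK126 (adjusted p = 0.81), 0.06 ± 0.19 with UNC0638 (adjusted p = 0.84) and -0.33 ± 0.19 with both (adjusted p = 0.187). With the replicate number as a block the last was called lower, with an SE of 0.10 and an adjusted p of 0.0443, against 34% of all probes called lower in that fit. A second CIITA probe (chr16:10996598-10996657) was at or near background in both lines.

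Because UNC0638 and GSK126 were given at the same dose and time, their arrays were also compared with each other in MM.1S, a comparison added after the values had been seen. UNC0638 was above GSK126 for 8 of the 10 genes, against 6.02% of all probes. The differences of the 7 genes above background ran from 0.46 ± 0.10 for HLA-DMB (adjusted p = 0.0336) to 1.91 ± 0.18 for HLA-DOB (adjusted p = 0.00364), and HLA-DQA1 was below background in both groups. CD74 differed by 0.51 ± 0.13 (adjusted p = 0.0541) and CIITA by -0.02 ± 0.19. Adding UNC0638 to GSK126 raised the same number of genes, 8 of 10 with HLA-DQA1 among them, against 15.1% of all probes. Adding GSK126 to UNC0638 raised 2 of 10, against 6.03%: HLA-DMB by 0.46 ± 0.10 (adjusted p = 0.0353) and HLA-DQA1, at least 2.46-fold, which was kept only through the combination arrays. These comparisons share arrays, so their counts are not independent of each other.

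A departure from additivity, that is, a combination change unlike the sum of the 2 single changes on the log2 scale, was called by limma for 0 of the 10 genes in MM.1S, where 3 had an unadjusted p under 0.05, against 0% of all probes. The lowest adjusted p was that of HLA-DMB, 0.335, for a shortfall of -0.76 ± 0.14.

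The counts in MM.1S depend on which arrays set the spread. In a single fit over all 16 arrays, whose spread also draws on RPMI-8226, 9 genes called became 3 for UNC0638, 8 became 3 for the combination (HLA-DRB1, HLA-DQA1 and HLA-DOB in each), and 2 became 0 for GSK126. Without any 1 of the DMSO, GSK126 or UNC0638 arrays of MM.1S, GSK126 raised 1 gene, HLA-DMB.

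**Figure D3:**
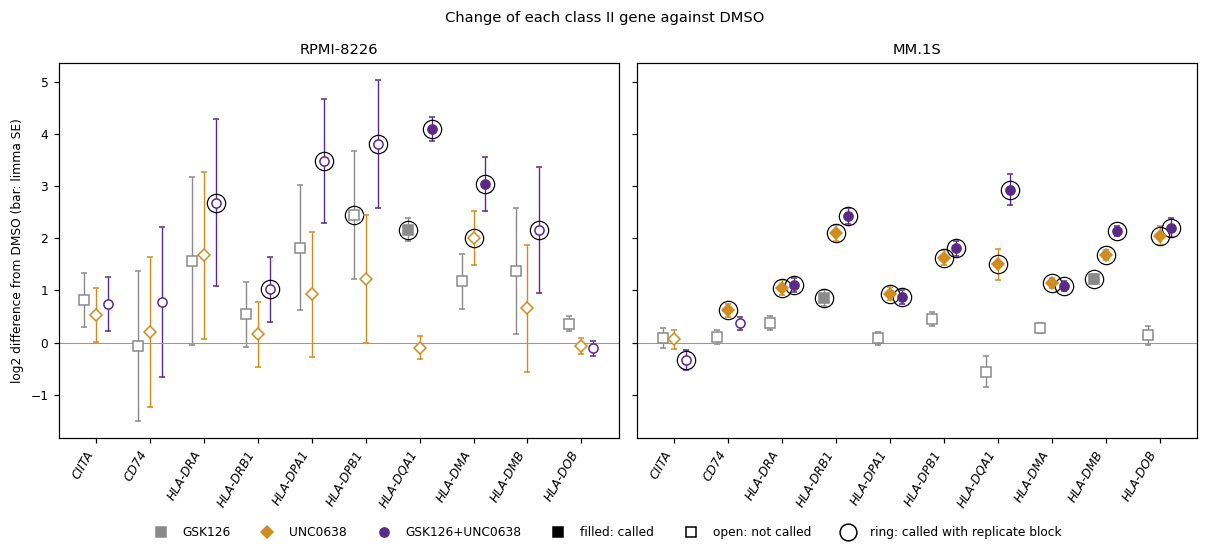
Difference from DMSO on the log2 scale for each gene and treatment, with the limma standard error as the bar. Filled symbols passed the test without a replicate block and rings mark those that passed with one. In MM.1S most UNC0638 and combination symbols are filled, whereas in RPMI-8226 5 of the 10 combination symbols are ringed but open. HLA-DQA1 was below background with DMSO in both lines, so its plotted changes are not measured folds.

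In RPMI-8226 the class II genes rose with the combination within each pair of same-numbered arrays, and how many passed depended on whether the pairs were taken into account. Both pairs were higher with the combination for 9 of the 10 genes, against 27.1% of all probes, the exception being HLA-DOB. This was not particular to the combination. With GSK126 alone both pairs were higher for 9 of the 10, all but CD74, against 23.7% of all probes. With UNC0638 alone they were higher for 7, against 25.8%. HLA-DQA1 is counted among the 9 with the combination and with GSK126. Without the block, limma called 2 of the 10 higher, HLA-DMA and HLA-DQA1, against 7.2% of all probes. HLA-DQA1 was kept in this line only through the combination arrays, where it was high, which leaves 1 call among the other 9 genes. With the block it called 7 higher, against 10.6%: these 2 and HLA-DRA, HLA-DRB1, HLA-DPA1, HLA-DPB1 and HLA-DMB. The same limit holds for HLA-DQA1 among these 7 and in the counts of pairs. The median change of the 10 genes was 2.42, and 2.16 without HLA-DQA1, beside a median of -0.13 for all probes.

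HLA-DMA rose under either fit. It lay at -1.89 and -0.74 on DMSO replicates 1 and 2, at -0.54 and 0.26 with GSK126, at 0.13 and 1.25 with UNC0638, and at 1.51 and 1.96 with both. Every treated array lay above both DMSO arrays, and the combination arrays lay above all others. The rise with both was 3.05 ± 0.52 (adjusted p = 0.0158), an 8.28-fold change, and the block narrowed the SE to 0.20 (adjusted p = 0.000625). With UNC0638 the change was 2.005, which passed with the block (SE 0.20, adjusted p = 0.0124) and not without it (SE 0.52, adjusted p = 0.229). Without DMSO replicate 1, or without either combination array, HLA-DQA1 alone was called of the 10 genes in the fit without a block.

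HLA-DQA1 was not well above background on any of the 6 other RPMI-8226 arrays and lay at -2.50 and -1.84 with both inhibitors. As a description with no test, it was at least 4.66-fold higher with both than with DMSO. A second probe for the gene (chr6:32609287-32609758, a span longer than the 60 bases of a probe) gave at least 3.05-fold. With GSK126 the probe read -4.08 and -4.13, against -6.36 and -6.19 with DMSO and -6.37 on both UNC0638 arrays, all below background. That difference was the 1 call among the 10 genes with GSK126 without a block, against 0.547% of all probes, and it was lost without any single DMSO, GSK126 or UNC0638 array.

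At their representative probes, the DP chains were higher with both inhibitors by more than 3 on the log2 scale in each pair of same-numbered arrays. In pair 1 the DMSO reading was not well above background at either probe, so that difference is not a measured fold. A second HLA-DPA1 probe changed by 1.09 and 1.60 in the pairs, and the 3 other tested HLA-DPB1 probes by 2.70 to 3.50. Those 3 HLA-DPB1 probes were not well above background on either DMSO array, so their differences are not measured folds. HLA-DPA1 lay at -4.34 and -2.18 with DMSO, the first not well above background, at -2.21 and -0.66 with GSK126, at -3.83 and -0.83 with UNC0638, and at -0.60 and 1.05 with both. The combination arrays lay above both DMSO arrays. The change with both was 3.74 in pair 1 and 3.23 in pair 2, 3.48 in the mean, with an adjusted p of 0.00233 with the block (SE 0.35) and 0.106 without it (SE 1.198). HLA-DPB1, represented in this line by a probe at chr6:33052981-33053587, lay at -6.45 and -3.71 with DMSO, at -3.34 and -1.91 with GSK126, at -5.21 and -2.52 with UNC0638, and at -2.12 and -0.40 with both. Replicate 1 was below background with DMSO and with UNC0638. It changed by 4.32 and 3.31 in the pairs, with an adjusted p of 0.00179 with the block and 0.0906 without it. HLA-DPB1 was also called with GSK126 when the block was used, at 2.45 ± 0.35 (adjusted p = 0.0317, 2 of 10 genes against 1.88% of all probes).

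The DR chains and HLA-DMB passed only with the block. HLA-DRA lay at -5.07 and -1.502 with DMSO, the first below background, at -2.87 and -0.56 with GSK126, at -3.12 and -0.09 with UNC0638, and at -1.91 and 0.71 with both. The groups overlapped, and within pairs the change with both was 3.16 and 2.21, with a block-adjusted p of 0.00317 against 0.296 without. HLA-DRB1 lay at -2.21 and -1.52 with DMSO, -1.66 and -0.98 with GSK126, -2.27 and -1.14 with UNC0638, and -1.68 and -0.01 with both. Its mean change with both was 1.02, with a block-adjusted p of 0.0441 against 0.31 without. HLA-DMB lay at -3.48 and -0.95 with DMSO, -1.64 and -0.05 with GSK126, -2.96 and -0.17 with UNC0638, and -0.88 and 0.76 with both, a mean change of 2.16 (block-adjusted p = 0.00918, 0.269 without).

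CIITA, CD74 and HLA-DOB did not pass in RPMI-8226 with or without the block. CIITA lay at -3.14 and -2.32 with DMSO, -1.91 and -1.90 with GSK126, -2.88 and -1.51 with UNC0638, and -2.45 and -1.53 with both. Its changes were 0.82 ± 0.52 with GSK126, 0.53 ± 0.52 with UNC0638 and 0.74 ± 0.52 with both (adjusted p = 0.369, with the block 0.14). CD74 lay at -4.00 and -1.19 with DMSO, -4.31 and -1.01 with GSK126, -3.60 and -1.19 with UNC0638, and -2.62 and -0.9987 with both, so its 2 replicates lay further apart than any of its group means. HLA-DOB lay at -0.95 and -0.78 with DMSO, -0.42 and -0.59 with GSK126, -0.82 and -1.05 with UNC0638, and -1.002 and -0.96 with both. Its replicates were close together, and the difference with both was -0.11 ± 0.15 (adjusted p = 0.645), which turned to 0.03 when each array was scaled by the probes detected on all arrays.

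With UNC0638 alone limma called 0 of the 10 genes in RPMI-8226 without a block, against 0.556% of all probes, and 1 had an unadjusted p under 0.05; with the block it called HLA-DMA, against 1.33%. The combination exceeded GSK126 for 1 gene (HLA-DQA1) without the block, against 2.01% of all probes, and for 2 (also HLA-DMA) with it, against 3.83%. It exceeded UNC0638 for HLA-DQA1 alone without the block, against 2.69%, and for HLA-DPA1, HLA-DPB1, HLA-DQA1 and HLA-DMA with it, against 5.11%. The HLA-DQA1 calls again rest on a gene kept only for its level with the combination. UNC0638 lay below GSK126 for HLA-DQA1 only, which was below background with both, against 0.819% of all probes, a comparison also added after the values had been seen. Departure from additivity was called for 0 of 10 in this line by limma, against 0.164% of all probes, with 1 gene under an unadjusted p of 0.05.

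Without the block, the test of whether the 2 lines responded differently called HLA-DOB alone with UNC0638 and with both inhibitors. The HLA-DOB change in RPMI-8226 minus that in MM.1S was -2.11 ± 0.24 with UNC0638 (adjusted p = 0.00187) and -2.32 ± 0.24 with both (adjusted p = 0.000299), 1 gene of 10 in each case, against 1.79% and 6% of all probes that were lower. The call also reflects close replicates, which differed by -0.23 to 0.17 for HLA-DOB in RPMI-8226. The larger HLA-DPA1 difference of 2.61 with both did not pass in that fit. With the block, HLA-DRB1 also rose less in RPMI-8226, by 1.95 ± 0.31 with UNC0638 (difference -1.95, adjusted p = 0.0157, 2 of 10 against 3.01%) and by 1.41 ± 0.31 with both (difference -1.41, adjusted p = 0.0186, 2 of 10 against 8.71%). In the same fit the combination raised 4 genes more in RPMI-8226, against 10.5% of all probes: HLA-DPA1 by 2.61 ± 0.43, HLA-DPB1 by 2.24 ± 0.43, HLA-DMA by 1.97 ± 0.24 and HLA-DRA by 1.57 ± 0.36. The HLA-DPA1, HLA-DPB1 and HLA-DRA probes were well above background on only 1 of the 2 RPMI-8226 DMSO arrays. The sizes of these 3 differences thus rest partly on readings below background. A second HLA-DPA1 probe, above background on all DMSO arrays, changed by 1.35 in RPMI-8226 and by 0.75 in MM.1S with both. The only other call without the block, HLA-DQA1 with GSK126, set groups below background against each other, 1 of 10 against 0.356% of all probes that were higher. The lines started from different levels, and line and slide cannot be told apart in these differences.

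The array also carried 9 further class II loci, of which 8 were tested in MM.1S and 3 in RPMI-8226. In MM.1S the combination raised 7 of the 8, against 22.2% of all probes: HLA-DRB4 by 2.37 ± 0.17, HLA-DQB1 by 2.33 ± 0.14, HLA-DRB5 by 2.33 ± 0.17, HLA-DRB3 by 1.70 ± 0.34, HLA-DPB2 by 1.59 ± 0.16 and HLA-DQB2 by 0.90 ± 0.26, with HLA-DQA2 at least 2.16-fold higher. The HLA-DRB4 and HLA-DRB5 changes lay close to the 2.43 of HLA-DRB1 in MM.1S. Whether their probes took up RNA of HLA-DRB1 or of each other was not tested, so these loci may not be separate changes. HLA-DQA2 was kept in both lines only through the combination arrays, which leaves 6 raised of 7 in MM.1S and 0 of 2 in RPMI-8226. HLA-DOA, the alpha chain of HLA-DO, was the exception at its tested probe. It lay at -3.26 and -3.28 with DMSO, -3.70 and -3.82 with GSK126, -3.43 and -3.59 with UNC0638, and -3.84 and -3.78 with both, so all treated arrays lay below both DMSO arrays. It fell by 0.54 ± 0.09 with both (adjusted p = 0.00393) and by 0.49 ± 0.09 with GSK126 (adjusted p = 0.0348), whereas its partner HLA-DOB rose with both. A second HLA-DOA probe, too dim to be tested, went the other way, from a mean of -6.82 with DMSO, below background, to -4.88 with both, where 1 of 2 arrays was above background. In RPMI-8226, HLA-DQA2 was at least 1.83-fold higher with both, HLA-DQB1 differed by -0.54 ± 0.27 (adjusted p = 0.219) and HLA-DRB3 by 0.11 ± 0.41 (adjusted p = 0.886).

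Class II genes are close relatives and many carry alleles, so a probe may take up RNA of more than the gene it is named for. The closest resemblance of a tested member's probe to that of another locus over a full probe length in these comparisons without gaps was between HLA-DRB1 and HLA-DQB1, which share 45 of 60 bases (75%). Both are printed from the array design, with the bases at which they differ in capitals.
HLA-DRB1, GRCh37 chr6:32548524-32548583, minus strand: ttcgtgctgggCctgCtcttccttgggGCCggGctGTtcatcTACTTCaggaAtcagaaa
HLA-DQB1, GRCh37 chr6:32629125-32629184, minus strand: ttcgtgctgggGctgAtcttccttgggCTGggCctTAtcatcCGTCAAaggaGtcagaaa
With the combination the first probe changed by 2.43 and the second by 1.501 in MM.1S, both called, and by 1.02 and -0.54 in RPMI-8226, neither called without the block. How much RNA of other loci each probe takes up was not tested. HLA-DQB1 is represented in MM.1S by another probe. The HLA-DRB3, HLA-DRB4 and HLA-DRB5 loci are present on some HLA haplotypes only, and whether either line carries them was not tested.

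The factors that assemble on class II promoters all differed from DMSO by less than 1 on the log2 scale with the combination. Of 12 genes for the RFX, NF-Y and CREB subunits and their cofactors, all 12 tested in both lines, the combination in MM.1S raised the acetyltransferase genes KAT2B (0.68 ± 0.12) and EP300 (0.54 ± 0.09). These 2 of 12 stand against 22.2% of all probes called higher, and the 3 that it lowered against 31.7% called lower. It lowered RFXANK by 0.60 ± 0.08, NFYC by 0.36 ± 0.08 and the deacetylase gene HDAC2 by 0.29 ± 0.08, and the list's median was -0.12, the same as the median over all probes. In RPMI-8226 limma called 0 of the 12, although 3 had an unadjusted p under 0.05, and the lowest adjusted p was 0.058 (CREBBP, 0.57 ± 0.15).

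Of 9 tested genes on the interferon gamma route to CIITA, the inhibitor SOCS1 included, 5 rose in MM.1S with the combination, against 22.2% of all probes. Among the 5 were the kinase gene JAK2, by 1.14 ± 0.15, and the feedback inhibitor SOCS1, by 1.06 ± 0.25. In RPMI-8226, 2 of the 9 rose, against 7.2% of all probes, among them the receptor gene IFNGR1, by 1.29 ± 0.22. IRF1, which acts on the interferon-responsive CIITA promoter, changed by 0.39 ± 0.14 in MM.1S (adjusted p = 0.0607) and by 0.06 ± 0.22 in RPMI-8226 (adjusted p = 0.873).

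Regulators of CIITA on the way from B cell to plasma cell moved in both directions. In MM.1S, 4 of 9 rose with the combination, among them the germinal centre repressor BCL6 (at least 32.1-fold, from below background with DMSO), EBF1 (at least 2.28-fold, likewise) and SPIB (1.05 ± 0.17), and 3 fell, IRF4 by 1.19 ± 0.12, PRDM1 by 0.71 ± 0.11 and XBP1 by 0.40 ± 0.10. In RPMI-8226, 3 of 8 rose, BCL6 (2.01 ± 0.17), BACH2 (1.48 ± 0.20) and SPIB (1.32 ± 0.31), and 2 fell, IRF4 by 1.70 ± 0.19 and IRF8 by 1.13 ± 0.16. Of all probes, 22.2% were called higher and 31.7% lower in MM.1S, and 7.2% and 5.17% in RPMI-8226. PRDM1, the repressor of CIITA in plasma cells, differed by -0.39 ± 0.21 in RPMI-8226 (adjusted p = 0.257). SPI1 changed by 0.09 ± 0.10 in MM.1S and 0.38 ± 0.26 in RPMI-8226, and PAX5 was too dim to be tested in either line.

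Of the genes that process antigen for class II molecules, 7 of 12 rose in MM.1S with the combination, against 22.2% of all probes, and 0 fell. CTSZ rose by 2.40 ± 0.17, CTSH by 1.47 ± 0.10 and CTSB by 1.33 ± 0.10, all lysosomal cathepsins. In RPMI-8226, 1 of 11 rose, near the 7.2% of all probes, CTSH by 2.36 ± 0.30, and the thiol reductase gene IFI30 fell by 0.58 ± 0.14. Of 5 tested surface partners of antigen presentation, 3 rose in MM.1S with the combination, against 22.2% of all probes. The 1 that fell there stands against 31.7% called lower. In RPMI-8226, 1 of 4 rose, against 7.2% of all probes, and 1 fell, against 5.17%. CD83 rose in both lines, by 2.05 ± 0.15 and 2.73 ± 0.37, and CD40 rose by 2.90 ± 0.31 in MM.1S. ICAM1 rose by 1.05 ± 0.15 in MM.1S and fell by 0.79 ± 0.19 in RPMI-8226.

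With the combination in MM.1S, MHC class I genes had a smaller median change than class II genes, a difference that was not tested. Of 13 class I and peptide transport genes, 7 rose with the combination, against 22.2% of all probes, and 1 fell, against 31.7%, with HLA-F at 0.91 ± 0.09, B2M at 0.72 ± 0.09 and TAP1 at 0.71 ± 0.09 in front, and TAP2 lower by 0.28 ± 0.08. Their median was 0.36, beside 1.46 for the class II genes and -0.12 for all probes. Without HLA-DQA1, which was kept only through the combination arrays, the class II median was 1.11. In RPMI-8226 limma called 0 of the 13, although 3 had an unadjusted p under 0.05, with TAP1 closest at 0.59 ± 0.15 (adjusted p = 0.0545). NLRC5, the class I counterpart of CIITA, differed by -0.19 ± 0.19 in MM.1S (adjusted p = 0.43) and -0.34 ± 0.17 in RPMI-8226 (adjusted p = 0.215).

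**Figure D4:**
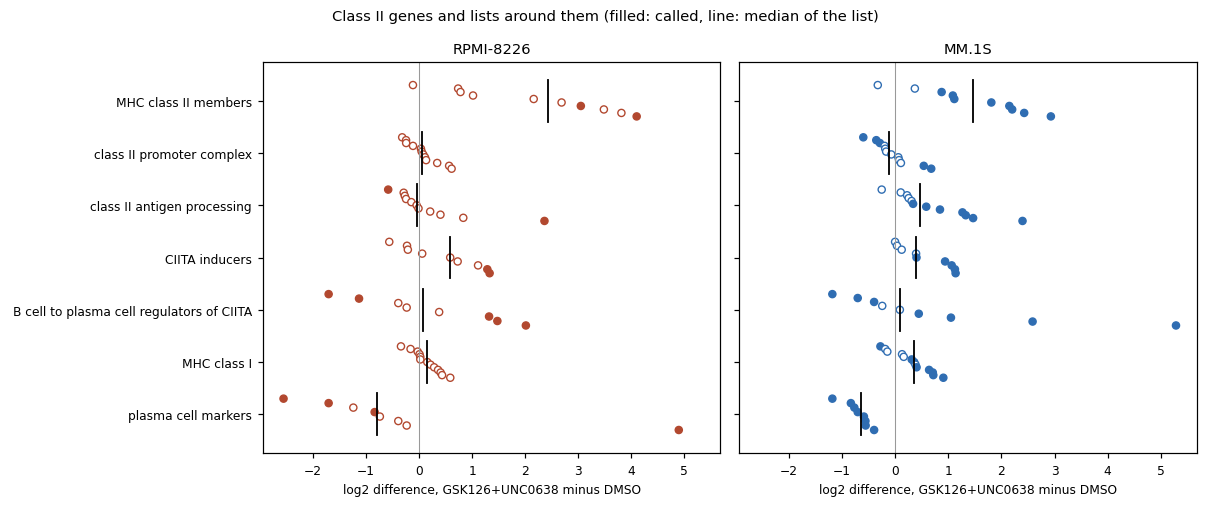
Change with GSK126 + UNC0638 against DMSO on the log2 scale for the genes of 7 lists, with 1 point per gene, filled where the test without a block passed, and a vertical line at the list's median. Among the 7 lists drawn, the class II genes have the highest median in both lines, 2.42 in RPMI-8226 and 1.46 in MM.1S, although CIITA in MM.1S and HLA-DOB in RPMI-8226 lie below 0, and no test was made of that order. Without HLA-DQA1, which was kept only through the combination arrays, these medians were 2.16 and 1.11. Lists not drawn had higher medians: T cell (4.67), mature B cell (2.85) and myeloid markers (2.67, or 2.58 without ITGAX) in RPMI-8226 and the other class II loci (2.02, or 1.70 without HLA-DQA2) in MM.1S.

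Markers of other class II-bearing cells moved in the same arrays. The summed intensity of 8 myeloid and dendritic markers, in units of each array's 75th percentile, was 1.54 and 2.01 with DMSO in RPMI-8226, 5.65 and 6.96 with GSK126, 1.201 and 1.49 with UNC0638, and 5.81 and 6.22 with both. ITGAM was at least 11.4-fold and ITGAX at least 3.64-fold higher with both than with DMSO, where neither was above background, and CD14 rose by 2.67 ± 0.25, while CD1C and CLEC9A were above background on no RPMI-8226 array. In MM.1S the sums ran from 3.30 to 3.78 with DMSO, 2.29 to 2.64 with GSK126, 3.36 to 3.55 with UNC0638 and 4.03 to 4.24 with both, where ITGAM rose by 3.58 ± 0.14 and FCER1A by 3.08 ± 0.21. Of 5 myeloid markers tested in each line, 3 rose with both in RPMI-8226, against 7.2% of all probes, and 2 in MM.1S, against 22.2%. ITGAX was kept in RPMI-8226 only through the combination arrays, which leaves 2 raised of 4 there.

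Of the mature B cell markers, MS4A1 (CD20) was at least 17.2-fold higher with both in RPMI-8226 and at least 2.74-fold higher in MM.1S, 1 of 3 and 2 of 4 tested markers rose, against 7.2% and 22.2% of all probes, and PAX5 was above background on no array. MS4A1 was kept in MM.1S only through the combination arrays, which leaves 1 raised of 3 B cell markers there. The sum of 7 such markers ran from 4.10 to 4.84 with DMSO and 8.52 to 10.4 with both in RPMI-8226, and from 12.01 to 13.2 and 14.6 to 15.3 in MM.1S. Of the T cell markers, 5 of 5 rose in RPMI-8226, CD3G by 5.79 ± 0.34 and CD3D by 4.99 ± 0.31 among them, and 2 of 4 in MM.1S, against the same shares. Their sum rose from 0.451 and 0.504 to 14.3 and 12.5 in RPMI-8226 and stood at 1.47 and 1.53 against 1.84 and 2.16 in MM.1S.

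Plasma cell markers fell in MM.1S, 8 of 8 with the combination, against 31.7% of all probes called lower, IRF4 by 1.19, SLAMF7 by 0.84 and CD38 by 0.77 among them. In RPMI-8226, 3 of 8 fell, against 5.17%, TNFRSF17 by 2.55 ± 0.42, IRF4 by 1.70 ± 0.19 and SDC1 by 0.84 ± 0.15, and SLAMF7 rose by 4.89 ± 0.42. Of 3 tested stromal and epithelial markers in each line, 1 rose in RPMI-8226, against 7.2% of all probes, and 1 fell, against 5.17%. In MM.1S 2 rose, against 22.2% of all probes, and 1 fell, near the share of 31.7% called lower. EPCAM was lower in both lines. COL1A2, the 1 that rose in RPMI-8226, was kept there only through the combination arrays. The part of any of these in the class II changes was not tested.

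Genes whose pattern over the 8 group means was most like that of CIITA were BTG3 (Pearson r = 0.999), NDNL2 (0.997), SEPT11, RFFL and ATP6V0E2 (each 0.995), among 14829 genes. Those most like HLA-DRA were HBD (0.999), GBP3, C10orf88, XLOC_l2_009316 and TCEAL1 (down to 0.997). The 8 points fall into 2 clusters, 1 for each line, so these values describe the gap between the lines more than any response to treatment.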

How the data were processed

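Each of the 16 arrays (Agilent SurePrint G3 Human GE v2, 1 colour, Cy3) was labelled by the authors from 100 ng of total RNA. The deposited scanner files hold the intensities of 62976 spots an array, background-subtracted by Agilent Feature Extraction (10.7, per the file headers). The same processed intensity values fill the deposited series table, which was equal after rounding to 3 significant digits for 99.9958% of 939472 values. No spot was saturated, and the number of arrays limits the precision.

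Control spots and outlier spots were left out, spots of a probe averaged, and log2 intensities centred on each array's 75th percentile, which was 256 to 349 in RPMI-8226 and 431 to 477 in MM.1S. A probe was kept in a line where some group had both its arrays above background by the scanner software's own test. Group means were fitted with limma 3.58.1 in R 4.3.3 over all 8 arrays of a line, or over all 16 for differences between lines, with Benjamini-Hochberg adjustment over every probe tested. Where neither array of a group rose above background, a fold is given as a bound against each array's lowest signal well above background. On simulated data with 200 probes changed by 1.5 on the log2 scale, 54% were recovered in the combination comparison of RPMI-8226 (23199 probes, 7 false among 115 calls) and 75.5% in that of MM.1S (25102 probes, 9 false among 160 calls).

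Groups and replicate numbers came from the sample labels. The deviations of arrays with the same number from the means of their groups correlated above 0.1 in 6 of 6 pairs of groups in RPMI-8226 (0.254 to 0.415), which was taken as pairing, and in 5 of 6 in MM.1S (0.0847 to 0.225), which was not. The genes and lists were chosen with earlier results of these data known, among them tables of fold changes that name class II genes in MM.1S, so no count over them is independent evidence. All 10 genes are named with their values, and from each other list up to 3 called genes a line with the largest fitted change under the combination, with NLRC5, IRF1, IRF4, PRDM1, PAX5 and SPI1. Further list genes, the promoter complex and regulator genes beyond 3 among them, were named after their values were seen. Some genes of these lists are not reported here by name. The genes most like CIITA and HLA-DRA are the 5 outside the class II lists with the highest correlation.

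Promoter windows came from RefSeq (GRCh38.p14), and probe positions from the array files (GRCh37). The alternatives tried were another background correction, percentile, normalization, filter, input table, variance model, probe rule and set of arrays, the replicate block, and each array left out in turn. The authors' own comparisons were not used.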

Additional observations from a re-analysis of the deposited data

Results flagged for a closer look

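The response of HLA-DOB differed between the lines by an interaction term in limma: the change in RPMI-8226 minus that in MM.1S was -2.11 on the log2 scale with UNC0638 and -2.32 with both inhibitors. The same test picked out HLA-DQA1 with GSK126, at a difference of 2.73, between groups that were all below background. Line and slide cannot be told apart in these differences.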

How the results depend on the processing

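Of 186 counts of the 10 genes recomputed under other processing choices, 144 stayed within 1.5 times of the reported count and 42 moved; the cause was not tested unless said. The percentile over probes detected on all arrays, quantile normalization, the series table and counting any tested probe of a gene moved none. With the replicate number as a block, the counts in RPMI-8226 became 2 with GSK126, 1 with UNC0638 and 7 with both, 2 for both against GSK126 and 4 against UNC0638, and the response differences 2 for UNC0638 and 6 for both. In MM.1S, where the numbers did not pair the arrays by the rule used, the block added CIITA (lower) to the calls for both against DMSO and against GSK126. With normexp correction RPMI-8226 gave 0 with GSK126 and 4 with both, and the responses 0, 2 and 3 for GSK126, UNC0638 and both. With no filter, RPMI-8226 GSK126 gave 0, MM.1S GSK126 1 and MM.1S both against UNC0638 0. Requiring all arrays above background, which tests fewer genes, gave in RPMI-8226 0 with GSK126, 1 with both, and 0 against either single inhibitor, 1 for both against UNC0638 in MM.1S, 0 for the GSK126 response, 2 for that of both and 5 for DMSO. An intensity-dependent prior gave 0 and 4 for GSK126 in RPMI-8226 and MM.1S, 1 for both against UNC0638 in MM.1S and 2 for the response to both. Fitting only the groups compared, with fewer samples, gave 0 and 1 for GSK126, 0 for both against UNC0638 in MM.1S and 0 for the GSK126 response. A single fit over all arrays, which pools the spread of both lines, gave in RPMI-8226 1 with UNC0638, 4 with both and 2 against GSK126, and in MM.1S 0 with GSK126, 3 with UNC0638, 3 with both, 3 against GSK126 and 1 against UNC0638. The mean over a gene's probes gave 0 for GSK126 in RPMI-8226, 0 for its response and 2 for the UNC0638 response. Without 1 array at a time, the counts ran from 0 to 1 (GSK126), 1 to 2 (both) and 0 to 1 (both against GSK126) in RPMI-8226, from 1 to 2 (GSK126), 7 to 9 (UNC0638), 8 to 9 (both), 7 to 8 (both against GSK126) and 0 to 1 (both against UNC0638) in MM.1S, and from 0 to 1, 1 to 2 and 1 to 2 for the responses to GSK126, UNC0638 and both. The DMSO count ran from 7 to 9. The arrays concerned were, in RPMI-8226, DMSO replicate 1 or either combination array (both), any DMSO, GSK126 or UNC0638 array (GSK126) and GSK126 replicate 1 (both against GSK126). In MM.1S they were any DMSO, GSK126 or UNC0638 array (GSK126) and any array (both against UNC0638, 1 without a DMSO array and 0 without any other). For the responses they were RPMI-8226 GSK126 replicate 1 or an MM.1S GSK126 array (GSK126), a combination array of RPMI-8226 or MM.1S DMSO replicate 1 (UNC0638), and RPMI-8226 or MM.1S DMSO replicate 2 or any treated RPMI-8226 array (both).

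Signs turned only for changes that had not passed. CD74 with GSK126 in RPMI-8226 was 0.16 with normexp (-0.06 as reported), and HLA-DOB with both was 0.025 with the percentile over probes detected on all arrays. Without 1 array, RPMI-8226 changes with GSK126 ran from -1.71 to 1.59 for CD74 and -0.22 to 3.35 for HLA-DRA, and that of CD74 with both from -0.62 to 2.19. Those with UNC0638 ran from -1.20 to 1.61 (CD74), -0.15 to 1.22 (CIITA), -0.74 to 2.05 (HLA-DMB), -0.18 to 0.047 (HLA-DOB), -0.57 to 2.43 (HLA-DPA1), -0.155 to 2.59 (HLA-DPB1), -0.11 to 3.46 (HLA-DRA) and -0.41 to 0.72 (HLA-DRB1). In MM.1S they ran from -0.0862 to 0.25 and -0.0389 to 0.16 for CIITA with GSK126 and UNC0638, -0.14 to 0.43 for HLA-DOB and -0.0232 to 0.18 for HLA-DPA1 with GSK126. Scaling by the probes detected on all arrays moved the share of higher calls among all probes with both inhibitors from 58.22% to 76.73% in RPMI-8226 and from 41.18% to 60.53% in MM.1S, and the median of all probes from -0.1278 to 0.0107 and from -0.118 to 0.0966. In MM.1S that share moved from 68.47% to 84.19% with GSK126 (54.92% with normexp), 43.72% to 62.87% with UNC0638, 40.74% to 59.61% for both against GSK126 and 44.78% to 75.64% against UNC0638.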
